A study of Mus musculus with 6 samples.

Results

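The genes described here supply amino acids to the cell or belong to the programme of the transcription factor ATF4. The set was named gene by gene, with 49 symbols, of which 48 were found among the 19739 genes of the deposited table. Phgdh, the enzyme of the first step of serine synthesis, was not analysed here. The genes fall into 6 role groups, namely stress factors, other targets, enzymes of serine and folate metabolism, other amino acid enzymes, transporters and tRNA ligases. Transcripts were measured in cultured mesenchymal stromal cells of mouse bone marrow (BMSCs, primary cells) that had received an adeno-associated virus (AAV) with the FTO gene. FTO is an enzyme that removes the N6-methyladenosine mark from RNA. In 3 libraries the virus carried the form labelled WT and in 3 the form labelled 3KR, an abbreviation that the labels do not spell out, while SUMOylation of FTO is named in the title of the series. The libraries hold the poly(A) RNA set aside as input before immunoprecipitation of m6A, so their values are transcript levels.

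Both groups carried a virus with FTO, so each difference is one of the 3KR form against the WT form, and untransduced cells were not analysed here. The labels do not give the promoter of the vector, the age, sex or number of the mice, nor whether separate mice or cultures stand behind the libraries. The p-values therefore rest on the spread among 3 libraries a group, and that spread may be technical. In bulk RNA, fewer cells of a type and less RNA per cell cannot be told apart.

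ATF4 is a basic leucine zipper factor whose protein is made more efficiently when the initiation factor eIF2 is phosphorylated. Kinases phosphorylate eIF2 when amino acids are scarce, when proteins misfold in the endoplasmic reticulum, when haem is lacking or when double-stranded RNA is present. ATF4 then activates genes that import amino acids, make non-essential ones, charge tRNAs and, when the stress lasts, genes of cell death and of feedback. In osteoblasts, which arise from BMSCs, ATF4 is known for its part in amino acid uptake and in collagen synthesis.

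Values are FPKM, in which fragments are divided by the length of the transcript and by all mapped fragments. No read counts come with them, and the sequencing depth is unknown. Summed over genes, the libraries held 390527 to 391767 FPKM in WT and 408605 to 421234 in 3KR. Fto RNA averaged 258 ± 9.84 FPKM with the WT virus and 443 ± 24.8 with 3KR (SD, n = 3 each), so the forms differ in the amount of Fto RNA too, and these cannot be told apart. The 11 markers of the labelled cells were all in the table, with group means from 3.68 to 639 FPKM. They moved in both directions, 6 lower in 3KR, 3 higher and 2 not called (calls are defined below). Of all tested genes 14.0% were lower and 46.7% higher, so the markers were lower more often than the background. They summed to 1674 to 1700 FPKM in WT and 1269 to 1289 in 3KR. Cxcl12 went from 409 to 70.3 FPKM and Ly6a from 308 to 102, with Pdgfra, Pdgfrb, Nt5e and Vcam1 also lower, while Lepr went from 3.68 to 16.9 and Cd44 from 50.2 to 101, with Itgb1 also higher, and Eng and Thy1 were not called. Markers of other cells were low. The 9 macrophage and monocyte markers in the table summed to 9.40 to 10.3 FPKM in WT and 1.47 to 3.02 in 3KR. Most of that sum in WT was Mpeg1, at 6.79 ± 0.288 FPKM, with 0.854 ± 0.361 in 3KR (SD, n = 3). All 9 had a lower mean in 3KR, but 7 of them did not reach an FPKM of 1 in 3 libraries. Cd68, Csf1r and Mrc1 overlapped between the groups. The pan-leukocyte gene Ptprc was at 0.139, 0.103 and 0.114 FPKM in WT and listed at 0, 0.0657 and 0 in 3KR. The 5 endothelial markers summed to 5.10 to 6.25 FPKM in WT and 1.84 to 2.12 in 3KR. Most of the endothelial sum was Tek, at 5.14 ± 0.531 and 1.46 ± 0.0818 FPKM (SD, n = 3). The other 4 did not reach an FPKM of 1 in 3 libraries. Of these Kdr went the other way, from 0.139 ± 0.0878 to 0.335 ± 0.0930 FPKM, without overlap. Pecam1, Cdh5 and Emcn overlapped between the groups. For comparison the 48 genes of the set summed to 3199 to 3264 FPKM in WT and 2401 to 2565 in 3KR. The part of other cells, or of a change in the stromal cells, in the differences below was not tested.

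The question was how far the amino acid and ATF4 genes differ between the forms. Most of them were lower in 3KR. A gene is called here when its limma adjusted p, over the 10985 genes that reach an FPKM of 1 in 3 or more libraries, is under 0.05. Of the 49 genes 45 could be tested, and each of these had an FPKM of 1 or more in all 6 libraries, the lowest value being 1.35. In 3KR 38 of the 45 were lower, 1 was higher and 6 were not called, so 84.4% were lower, where 14.0% of all tested genes were lower, 46.7% higher and 60.6% either. The median log2 difference of the 45 was -0.40, while the median of all tested genes was 0.15, a shift of the whole table toward 3KR that is 1.11-fold. Differences are given on the log2(FPKM + 1) scale as deposited, 3KR minus WT, and a relative difference has the shift of 0.15 subtracted. After median ratio scaling, which removes that shift, 41 of the 45 were lower and none was higher (limma, 0 also at an unadjusted p under 0.05), where 24.1% of all tested genes were lower and 21.6% higher. The same 38 were lower under all 4 scalings tried, where 13.9% of all tested genes were. In 40 of the 45 every 3KR library lay below every WT library, which held for 15.5% of all tested genes, and in 2 every 3KR library lay above, which held for 51.2%.

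**Figure D1:**
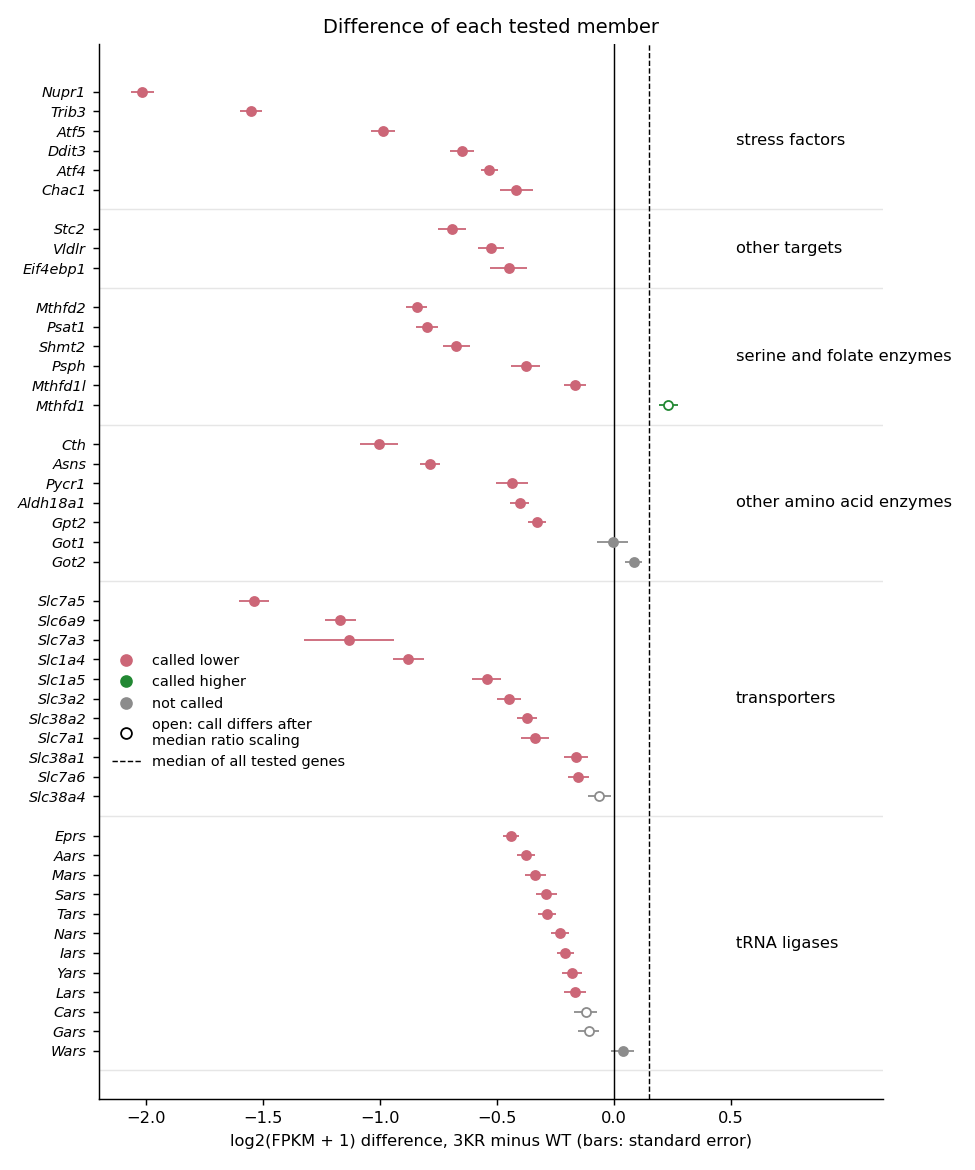
Difference of each tested gene of the set between 3KR and WT on the log2(FPKM + 1) scale (x axis), by role group, with bars for the standard error. The solid line marks 0 and the dashed line the median of all tested genes, 0.15. The 38 genes called lower lie between -2.01 (Nupr1) and -0.15 (Slc7a6), and open points mark Mthfd1, Slc38a4, Cars and Gars, whose call differs after median ratio scaling.

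The stress factors stood lower in 3KR without exception, 6 of 6, where 14.0% of all tested genes were lower. Their median log2 difference was -0.82. Atf4 itself was at 106, 109 and 108 FPKM in the WT libraries and 72.2, 73.5 and 77.4 in the 3KR libraries. The groups did not overlap, and Atf4 was 1.45-fold lower in 3KR, with a log2 difference of -0.53 ± 0.04 (SE, limma adjusted p = 1.00e-05). Atf5, a related factor that is itself a target of ATF4, was at 68.3, 72.3 and 70.2 FPKM in WT and 32.4, 36.1 and 36.4 in 3KR. It was 2.01-fold lower, a log2 difference of -0.99 ± 0.05 (limma adjusted p = 1.74e-06). Within a library the ratio of Atf5 to Atf4 went from 0.650 ± 0.0102 to 0.471 ± 0.0212 (SD, n = 3), without overlap (exact permutation p = 0.1, two-sided, adjusted p = 0.114 over the 8 ratios tested here). With 3 against 3 libraries 0.1 is the smallest p possible, so none of these ratios could pass.

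The largest differences of the whole set were in genes that act downstream of ATF4 in stress. Nupr1, a small chromatin-associated protein induced by stress, was at 42.1, 43.4 and 40.0 FPKM in WT and 9.17, 9.88 and 9.74 in 3KR. That is 4.36-fold lower, a log2 difference of -2.01 ± 0.05 (limma adjusted p = 3.31e-08). Trib3, a pseudokinase that binds AKT and restrains ATF4 in a feedback loop, was at 24.8, 23.6 and 24.2 FPKM in WT and 7.22, 7.77 and 7.80 in 3KR, or 3.18-fold lower (log2 difference -1.55 ± 0.05, limma adjusted p = 9.82e-08). In both genes the highest 3KR library lay below the lowest WT library. Ddit3, which encodes the death-promoting factor CHOP, was at 19.5, 18.7 and 18.7 FPKM in WT and 11.0, 12.3 and 11.8 in 3KR (1.62-fold lower, limma adjusted p = 1.92e-05). Chac1, an enzyme that degrades glutathione, was the least abundant of the group, at 2.78, 2.89 and 2.81 FPKM in WT and 1.71, 1.78 and 2.11 in 3KR (1.51-fold lower, limma adjusted p = 0.00127).

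The other targets fell as well, 3 of 3, where 14.0% of all tested genes were lower. Stc2, the secreted glycoprotein stanniocalcin 2, was at 8.55, 8.58 and 9.46 FPKM in WT and 5.24, 4.80 and 5.26 in 3KR, 1.74-fold lower (limma adjusted p = 3.19e-05). Vldlr, the very low density lipoprotein receptor, was at 71.6, 69.3 and 79.5 FPKM in WT and 50.5, 49.0 and 52.4 in 3KR, 1.45-fold lower (limma adjusted p = 1.07e-04). Eif4ebp1 encodes a repressor of cap-dependent translation that mTORC1 inactivates. Its values were 35.5, 37.6 and 37.0 FPKM in WT and 23.1, 28.2 and 28.8 in 3KR, 1.37-fold lower (limma adjusted p = 0.00155). One 3KR library, replicate 1, lay below the other two, and all 3 lay below WT.

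**Figure D2:**
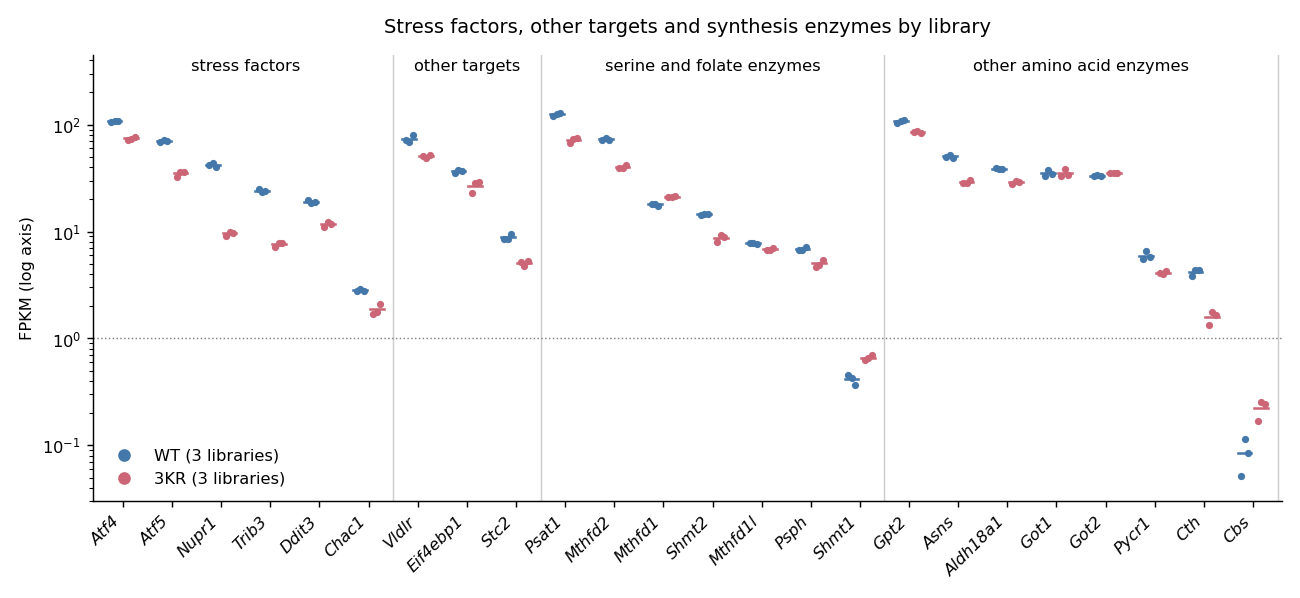
FPKM of each gene of 4 role groups (y axis, log scale) in the 3 WT and the 3 3KR libraries. Points are libraries, short lines are group means, and the dotted line marks an FPKM of 1. The 3KR points of Nupr1 and Trib3 lie farthest below WT among the stress factors. Mthfd1, Shmt1, Cbs and Got2 have their 3KR points above WT, and the points of Got1 overlap.

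ATF4 binds DNA together with partners of the C/EBP family at a composite element, which is often written as TGATGNAA, with TGATGCAA as the common form. Both strands of promoter windows, 250 bases before to 50 after each annotated start in RefSeq (build GRCm38.p6), were searched for these letters, and 39 of the 49 genes matched an entry, 1 of them (Mars) by its synonym. Cth, Slc1a5, Slc7a3, Slc7a5, Slc38a1, Cars, Lars, Nars, Wars and Eif4ebp1 had no window used here. TGATGNAA was found in 13 of the 39 genes (33.3%), and in 3.97% of all 32851 windows. TGATGCAA, a case of TGATGNAA and so counted in both, was found in 10 (25.6%), and in 0.895% of all windows. TGACGTCA, the cyclic AMP response element, was found in 0 of the 39 and in 1.79% of all windows. A gene counted when any of its windows held the letters, and the 39 genes had 48 windows. Shares of genes and shares of windows are therefore unlike measures. Several of these genes are known for such elements, so their share describes the set and is not a result of these libraries. The 9 matches of TGATGNAA that lie wholly before the start are shown because they let the element be compared between genes that fell and genes that were not called. Each sequence runs 5′ to 3′ on the strand of the gene, and the capitals mark the match, which reads TTGCATCA or TTTCATCA where the element lies on the other strand.
Chac1, chr2:119351029-119351076, plus strand: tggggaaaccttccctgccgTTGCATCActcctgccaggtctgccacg
Nupr1, chr7:126625553-126625600, minus strand: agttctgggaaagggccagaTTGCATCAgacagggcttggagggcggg
Vldlr, chr19:27216800-27216847, plus strand: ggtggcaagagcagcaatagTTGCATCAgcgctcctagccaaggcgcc
Asns, chr6:7693210-7693252, minus strand: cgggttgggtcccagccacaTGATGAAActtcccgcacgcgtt
Pycr1, chr11:120643824-120643871, minus strand: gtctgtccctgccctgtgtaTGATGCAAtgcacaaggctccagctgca
Aars, chr8:111033710-111033757, plus strand: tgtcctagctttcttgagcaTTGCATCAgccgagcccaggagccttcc
Tars, chr15:11399659-11399693, minus strand: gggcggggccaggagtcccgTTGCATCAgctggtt
Got1, chr19:43524680-43524727, minus strand: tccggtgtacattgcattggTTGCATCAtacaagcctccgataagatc
Gars, chr6:55037951-55037998, plus strand: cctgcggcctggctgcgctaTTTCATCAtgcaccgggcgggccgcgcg

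The first 7 of these genes were lower in 3KR, while Got1 and Gars were not called. Their matches began between 15 bases (Tars) and 200 bases (Vldlr) before the start, that of Asns at 23 and that of Got1 at 102. Trib3, Slc1a4, Iars and Yars had a match that touched or followed the start, and Aars had another one there. Of the 13 genes with a match all could be tested, and 11 were lower, with a median relative log2 difference of -0.57. Of the 22 tested genes whose windows held no match 19 were lower, with a median of -0.54. Of all tested genes 14.0% were lower. The genes with and without these letters near the start thus had like medians, and no test was made of that comparison. Atf4, Atf5, Ddit3, Psat1, Shmt2 and Mthfd2 are among those without a match in this window.

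In serine and folate metabolism 5 of 6 tested genes were lower in 3KR and 1 was higher, where 14.0% and 46.7% of all tested genes were. Lower were Psat1 and Psph of serine synthesis and the mitochondrial enzymes Shmt2, Mthfd2 and Mthfd1l, and higher was the cytosolic Mthfd1. Psat1, the transaminase of serine synthesis, was at 121, 127 and 130 FPKM in WT and 68.1, 73.4 and 74.3 in 3KR, 1.75-fold lower (log2 difference -0.80 ± 0.05, limma adjusted p = 2.86e-06). Psph, the phosphatase that completes serine, was at 6.69, 6.66 and 7.11 FPKM in WT and 4.70, 4.91 and 5.47 in 3KR, 1.36-fold lower (limma adjusted p = 0.00118). Every 3KR library lay below every WT library in both genes.

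Serine then gives a carbon to folate through SHMT2 in mitochondria or SHMT1 in the cytosol. Shmt2 was at 14.4, 14.5 and 14.5 FPKM in WT and 7.94, 9.25 and 8.92 in 3KR, 1.66-fold lower (log2 difference -0.67 ± 0.06, limma adjusted p = 3.36e-05). Shmt1 was under the filter, at 0.455, 0.422 and 0.365 FPKM in WT and 0.633, 0.651 and 0.700 in 3KR, so it was not tested, although all 3KR libraries lay above WT. The ratio of Shmt2 to Shmt1 within a library went from 35.2 ± 4.12 to 13.2 ± 0.907 (SD, n = 3), without overlap (exact permutation p = 0.1, adjusted p = 0.114).

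Among the Mthfd genes, Mthfd2, the mitochondrial dehydrogenase and cyclohydrolase, was at 71.2, 75.7 and 71.8 FPKM in WT and 39.0, 39.4 and 42.3 in 3KR. That is 1.81-fold lower (log2 difference -0.84 ± 0.05, limma adjusted p = 2.07e-06). Mthfd1l, the mitochondrial enzyme that releases formate, was at 7.79, 7.85 and 7.66 FPKM in WT and 6.69, 6.70 and 7.02 in 3KR, 1.14-fold lower (limma adjusted p = 0.0146). Its call was lost without WT replicate 2 (limma adjusted p = 0.0504). Mthfd1, the cytosolic trifunctional enzyme, went the other way, from 18.2, 18.2 and 17.5 FPKM to 21.2, 20.9 and 21.7, 1.18-fold higher (log2 difference 0.23 ± 0.04, limma adjusted p = 0.00159). After median ratio scaling its log2 difference was 0.07 and it was not called (limma adjusted p = 0.188). It was still called higher after scaling to the same sum (0.15, limma adjusted p = 0.0126) and by quantiles (0.14, limma adjusted p = 0.0214). The folate genes Mthfd2l and Aldh1l1 lie outside the set, and the mitochondrial Mthfd2l, added with its values known, was not called (4.38 ± 0.649 and 4.10 ± 0.199 FPKM, limma adjusted p = 0.502) and the cytosolic Aldh1l1 was lower (4.05 ± 0.465 and 3.25 ± 0.227, limma adjusted p = 0.0263). Mitochondrial and cytosolic enzymes were not compared as groups. Ratios within a library are not changed by a factor applied to a whole library. The ratio of Mthfd2 to Mthfd1 went from 4.05 ± 0.129 to 1.89 ± 0.0577, and that of Mthfd1l to Mthfd1 from 0.432 ± 0.00449 to 0.320 ± 0.00437 (SD, n = 3), each without overlap (exact permutation p = 0.1, adjusted p = 0.114).

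**Figure D3:**
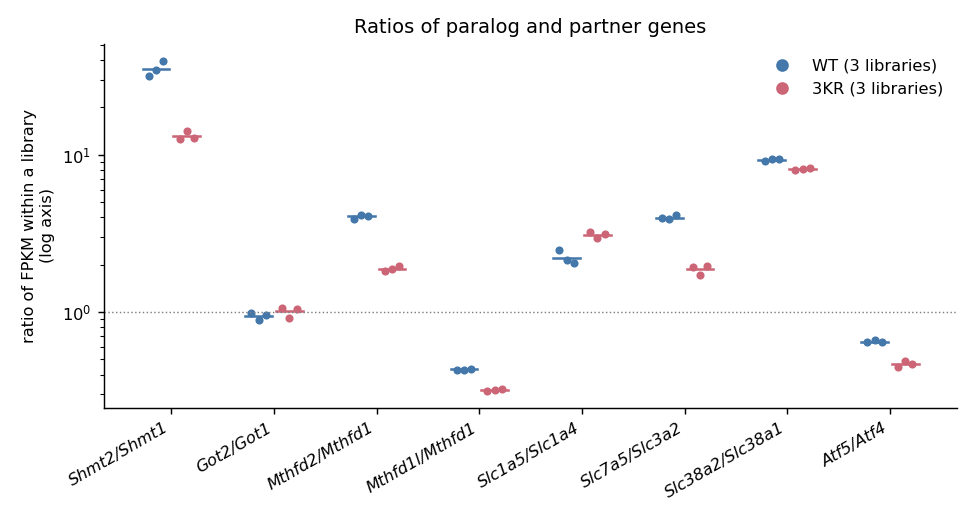
Ratio of the FPKM of paralog or partner genes within each library (y axis, log scale) for the 8 pairs tested, in the 3 WT and the 3 3KR libraries. Points are libraries and short lines group means. The groups overlap only for Got2/Got1, and Shmt2/Shmt1 shows the widest gap, 35.2 against 13.2.

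Among the other amino acid enzymes 5 of 7 tested genes were lower in 3KR and 2 were not called. Of all tested genes 14.0% were lower. Cth, the cystathionine lyase that yields cysteine, was at 3.88, 4.34 and 4.37 FPKM in WT and 1.35, 1.77 and 1.66 in 3KR, 2.63-fold lower (limma adjusted p = 2.04e-05). Asns, the asparagine synthetase that is a classic ATF4 target, was at 50.2, 52.2 and 49.2 FPKM in WT and 28.3, 28.2 and 30.2 in 3KR, 1.75-fold lower (log2 difference -0.79 ± 0.04, limma adjusted p = 2.36e-06). Every 3KR library of both genes lay below every WT library.

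The proline branch was lower by less. Aldh18a1, which makes the common precursor of proline and ornithine, was at 39.4, 38.3 and 38.4 FPKM in WT and 28.0, 29.8 and 29.2 in 3KR (1.33-fold lower, limma adjusted p = 6.91e-05). Pycr1, the mitochondrial reductase that completes proline, was at 5.51, 6.58 and 5.77 FPKM in WT and 4.06, 4.02 and 4.30 in 3KR (1.44-fold lower, limma adjusted p = 8.71e-04). Gpt2, the mitochondrial alanine transaminase, was at 103, 107 and 110 FPKM in WT and 84.5, 87.3 and 83.3 in 3KR (1.26-fold lower, limma adjusted p = 1.87e-04).

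The aspartate transaminases did not pass the test. Got1, the cytosolic form, was at 33.3, 37.6 and 34.4 FPKM in WT and 32.9, 38.2 and 33.8 in 3KR, with overlapping groups (log2 difference -0.01 ± 0.07, limma adjusted p = 0.940). Got2, the mitochondrial form, was at 32.8, 33.5 and 33.2 FPKM in WT and 35.1, 35.0 and 35.5 in 3KR (log2 difference 0.08 ± 0.04, limma adjusted p = 0.0699). The 3KR libraries of Got2 lay above WT as deposited, but its log2 difference was -0.08 after median ratio scaling. Their ratio overlapped between the groups, at 0.947 ± 0.0488 in WT and 1.01 ± 0.0817 in 3KR (SD, n = 3, exact permutation p = 0.3, adjusted p = 0.3). Cbs, which makes cystathionine, lay under the filter at 0.0513 to 0.116 FPKM in WT and 0.168 to 0.256 in 3KR and was not tested.

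Amino acid transporters were lower in 3KR in 10 of 11 tested cases, where 14.0% of all tested genes were lower. Slc7a5 encodes the light chain of LAT1, an exchanger that brings in leucine and other large neutral amino acids, and Slc3a2 the heavy chain that carries it to the membrane. Slc7a5 was at 84.7, 82.7 and 86.9 FPKM in WT and 27.6, 26.5 and 31.7 in 3KR, 2.96-fold lower (log2 difference -1.54 ± 0.06, limma adjusted p = 4.71e-07). Slc3a2 was at 21.4, 21.2 and 21.1 FPKM in WT and 14.3, 15.5 and 16.2 in 3KR, 1.39-fold lower (limma adjusted p = 1.55e-04). The light chain gene was thus lower by more than the heavy chain gene, and their ratio within a library went from 3.99 ± 0.112 to 1.87 ± 0.132 (SD, n = 3), without overlap (exact permutation p = 0.1, adjusted p = 0.114).

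Carriers of small neutral amino acids and of glycine followed. Slc6a9, the glycine transporter GLYT1, was at 10.1, 9.53 and 9.42 FPKM in WT and 3.60, 4.15 and 3.54 in 3KR, 2.58-fold lower (log2 difference -1.17 ± 0.06, limma adjusted p = 2.31e-06). Slc1a4, an exchanger of alanine, serine and cysteine, was at 6.37, 6.35 and 6.84 FPKM in WT and 2.85, 3.37 and 3.07 in 3KR, 2.11-fold lower (limma adjusted p = 1.23e-05). Its relative Slc1a5, the glutamine exchanger ASCT2, was at 15.8, 13.6 and 14.1 FPKM in WT and 9.26, 9.89 and 9.62 in 3KR, 1.51-fold lower (limma adjusted p = 1.51e-04). Slc1a4 was lower by more, so the ratio of Slc1a5 to Slc1a4 went up from 2.22 ± 0.223 to 3.11 ± 0.155 (SD, n = 3), without overlap (exact permutation p = 0.1, adjusted p = 0.114).

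Of the sodium-coupled Slc38 carriers of the set 2 were lower and 1 was not called. Slc38a2, the SNAT2 carrier that amino acid starvation induces, was at 80.7, 84.4 and 84.8 FPKM in WT and 66.6, 61.4 and 64.5 in 3KR, 1.30-fold lower (limma adjusted p = 1.53e-04). Slc38a1, its paralog, was at 8.85, 8.94 and 9.09 FPKM in WT and 8.35, 7.52 and 7.85 in 3KR, 1.13-fold lower (limma adjusted p = 0.0252). The call of Slc38a1 was lost without WT replicate 2 (0.0640), WT replicate 3 (0.0766), 3KR replicate 2 (0.0876) or 3KR replicate 3 (0.0608). The ratio of Slc38a2 to Slc38a1 went from 9.30 ± 0.161 to 8.12 ± 0.128 (SD, n = 3), without overlap (exact permutation p = 0.1, adjusted p = 0.114). Slc38a4 was at 8.35, 8.62 and 8.97 FPKM in WT and 7.996, 8.393 and 8.286 in 3KR, with overlapping groups (log2 difference -0.06 ± 0.05, limma adjusted p = 0.282). It was called lower after median ratio scaling (log2 difference -0.22, limma adjusted p = 0.00679).

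Slc7a1 and Slc7a3 are the carriers of cationic amino acids in the set. Relative to its mean, Slc7a3 had the widest spread of the set in 3KR, at 1.83, 2.83 and 4.29 FPKM against 7.39, 7.06 and 7.96 in WT. Its log2 difference of -1.13 had a standard error of 0.19 (limma adjusted p = 0.00131). All 3 of these 3KR libraries still lay below WT. Slc7a1 went from 18.1 ± 1.48 to 14.1 ± 0.289 FPKM (SD, n = 3, limma adjusted p = 0.00159). Slc7a6, an exchanger of cationic and neutral amino acids, went from 11.3 ± 0.130 to 10.1 ± 0.280 (limma adjusted p = 0.0168), a call lost without WT replicate 2 (0.0556) or 3KR replicate 2 (0.0619). Slc43a1, a carrier of large neutral amino acids, stood just under the filter, at 0.809 to 1.06 FPKM in WT and 0.693 to 1.08 in 3KR, and was not tested.

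**Figure D4:**
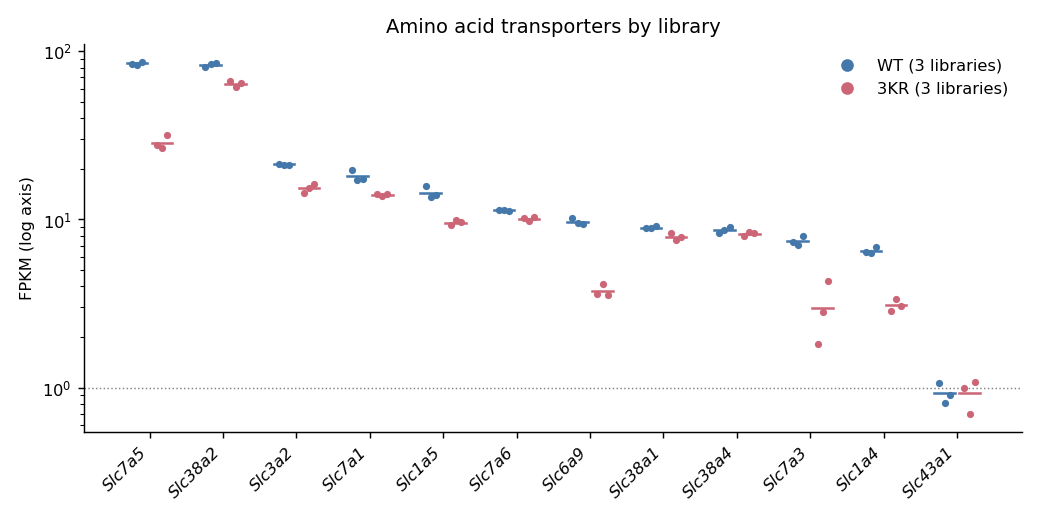
FPKM of the 12 amino acid transporter genes (y axis, log scale) in the 3 WT and the 3 3KR libraries. Points are libraries, short lines are group means, and the dotted line marks an FPKM of 1. The gap is widest for Slc7a5, 84.8 against 28.6 FPKM, the 3KR points of Slc7a3 run from 1.83 to 4.29, and the points of Slc38a4 and Slc43a1 overlap.

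The tRNA ligases, which load amino acids onto their tRNAs, were lower in 9 of 12 cases, where 14.0% of all tested genes were lower. They were lower by less than the groups above. Their median log2 difference was -0.22, from -0.44 to 0.04. By mean FPKM in WT they ran from 6.58 (Wars, for tryptophan) to 1067 (Nars, for asparagine). Eprs, the fused ligase for glutamate and proline, was at 137, 142 and 135 FPKM in WT and 101, 101 and 103 in 3KR, 1.36-fold lower (log2 difference -0.44 ± 0.03, limma adjusted p = 1.69e-05). Aars, for alanine, was at 213, 202 and 207 FPKM in WT and 155, 159 and 164 in 3KR, 1.30-fold lower (log2 difference -0.38 ± 0.04, limma adjusted p = 7.06e-05). In both genes the groups did not overlap.

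Mars, for methionine, was at 43.6, 43.7 and 45.1 FPKM in WT and 34.3, 33.6 and 36.5 in 3KR (1.27-fold lower, limma adjusted p = 3.03e-04). Tars, for threonine, was at 317, 330 and 327 FPKM in WT and 256, 267 and 276 in 3KR (1.22-fold lower, limma adjusted p = 3.17e-04). Sars, for serine, was at 73.9, 77.9 and 75.7 FPKM in WT and 59.2, 61.8 and 64.7 in 3KR (1.22-fold lower, limma adjusted p = 6.91e-04). The groups did not overlap in any of these genes. Nars went from 1067 ± 21.6 to 909 ± 39.0 FPKM, Iars, for isoleucine, from 90.7 ± 2.90 to 78.4 ± 1.02, Yars, for tyrosine, from 25.3 ± 0.146 to 22.2 ± 0.946, and Lars, for leucine, from 7.36 ± 0.186 to 6.44 ± 0.116 (SD, n = 3). These 4 were called lower too, with limma adjusted p from 0.00114 (Nars) to 0.0158 (Lars), and the call of Lars was lost without WT replicate 2 (0.0589).

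Cars, Gars and Wars were not called as deposited. Cars, for cysteine, went from 65.4 ± 2.36 to 60.1 ± 3.17 FPKM (SD, n = 3, limma adjusted p = 0.0584), and Gars, for glycine, was at 8.20, 8.47 and 8.63 FPKM in WT and 7.60, 7.81 and 7.83 in 3KR (limma adjusted p = 0.0711). Both were called lower after median ratio scaling (limma adjusted p = 0.00123 and 0.00195). Wars was at 6.42, 6.71 and 6.62 FPKM in WT and 6.60, 7.04 and 6.71 in 3KR, with overlapping groups (log2 difference 0.04 ± 0.05, limma adjusted p = 0.539).

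Other ligases served for comparison. The list of other cytosolic ligases and the scaffold proteins that hold ligases together had 11 tested genes, of which none was lower in 3KR (1 at an unadjusted p under 0.05), 5 were higher and 6 were not called, with a median log2 difference of 0.17 (limma, as above, 14.0% of all tested genes lower and 46.7% higher). After median ratio scaling 1 of them, Vars, was lower and none higher (1 higher at an unadjusted p under 0.05). Of all tested genes 24.1% were lower and 21.6% higher after that scaling. Vars, for valine and added with its values known, differed by -0.14 on the log2 scale as deposited (limma adjusted p = 0.0512). The most significant were Qars, for glutamine, from 31.2 ± 1.31 to 38.5 ± 2.0003 FPKM, Kars, for lysine, from 16.1 ± 0.756 to 18.9 ± 0.153, and Hars, for histidine, from 18.0 ± 0.408 to 20.7 ± 1.33 (SD, n = 3). Of 16 tested mitochondrial ligases, none was lower by limma (0 also at an unadjusted p under 0.05) and 6 were higher (Pars2 among them, added with its values known, reached an FPKM of 1 in 1 WT library and in all 3KR libraries), with a median of 0.15, which is that of all tested genes. After median ratio scaling 1 was lower and 3 were higher, so the higher count is near the 21.6% of all tested genes. Whether the ligases of the set differ from these other ligases was not tested, since the lists were chosen with earlier results of these data known.

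**Figure D5:**
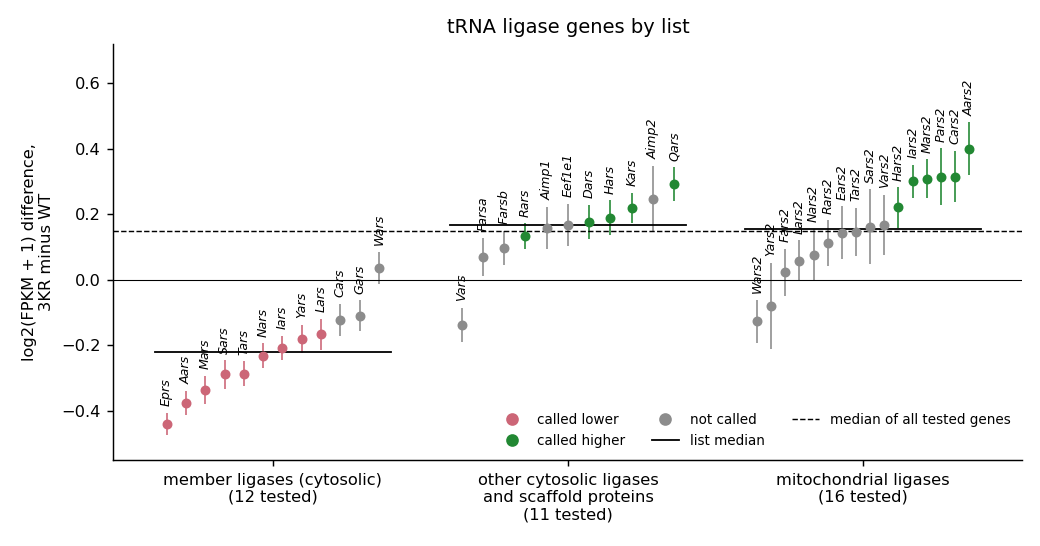
Difference between 3KR and WT on the log2(FPKM + 1) scale (y axis) for each tested tRNA ligase gene, in 3 lists (x axis), with bars for the standard error. Solid bars mark list medians (-0.22, 0.17 and 0.15) and the dashed line the median of all tested genes (0.15). The 9 ligases called lower all belong to the set described here, and the lists were chosen with earlier results of these data known.

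A list upstream of ATF4 held eIF2 kinases, phosphatase subunits, an eIF2 subunit and the subunits of its exchange factor eIF2B. Of 12 tested genes 3 were lower, 5 higher and 4 not called, where 14.0% of all tested genes were lower and 46.7% higher. After median ratio scaling 3 were lower and 1 higher, where 24.1% and 21.6% of all tested genes were. The scaled count of lower genes is thus near the background, and that of higher genes is under it. Eif2s1, Eif2b1 and Eif2b5, which are neither kinases nor phosphatase subunits and were added with their values known, made up 3 of the 5 higher genes. Eif2ak2, the kinase PKR that senses double-stranded RNA and is induced by interferon, went from 71.6 ± 4.01 to 45.4 ± 1.21 FPKM (SD, n = 3, limma adjusted p = 1.29e-05). Eif2ak3, the endoplasmic reticulum kinase PERK, went the other way, from 37.9 ± 1.08 to 47.4 ± 2.34 (limma adjusted p = 6.49e-04), and kept this call after median ratio scaling (0.0468). Eif2ak4, the kinase GCN2 that senses uncharged tRNA and was added with its values known, went from 1.57 ± 0.117 to 1.91 ± 0.110 FPKM. It was called higher as deposited (limma adjusted p = 0.0458), and not after median ratio scaling (0.390). Ppp1r15b, the constitutive partner of the phosphatase that restores eIF2, went from 155 ± 6.21 to 118 ± 2.03 (limma adjusted p = 7.99e-05). The phosphorylation of eIF2 and the amount of ATF4 protein were not measured.

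Partners of ATF4 and further stress-response genes, a list beside the set, were mostly lower in 3KR. Of 16 tested genes 11 were lower, 2 were higher and 3 were not called, where 14.0% of all tested genes were lower and 46.7% higher, and the median log2 difference was -0.33. After median ratio scaling 13 were lower and 1 higher, where 24.1% and 21.6% of all tested genes were. In 15 of the 16 all 6 libraries had an FPKM of 1 or more, the exception being Fgf21, which counts among the lower genes. Pck2, the mitochondrial enzyme that makes phosphoenolpyruvate, went from 10.1 ± 0.258 to 5.06 ± 0.215 FPKM (SD, n = 3, limma adjusted p = 2.98e-06). Aldh1l2, the mitochondrial folate enzyme, went from 17.8 ± 1.35 to 9.13 ± 0.403 (limma adjusted p = 1.01e-05), and Ddit4, an inhibitor of mTORC1 signalling, from 276 ± 7.48 to 183 ± 5.22 (limma adjusted p = 4.50e-06). Fgf21, a stress hormone induced by ATF4 and added with its values known, was at 2.24, 4.07 and 2.44 FPKM in WT and 0.353, 0.445 and 0.340 in 3KR. It passed the filter through the WT libraries alone, so its difference is given with no test. Hspa5, the endoplasmic reticulum chaperone BiP and also added with its values known, went from 195 ± 1.48 to 204 ± 6.21 (limma adjusted p = 0.134). Its log2 difference of 0.06 as deposited was -0.11 after median ratio scaling (limma adjusted p = 0.0190). The 2 higher genes were Ern1 and Nfe2l2, also added with their values known. Ern1 went from 117 ± 3.43 to 158 ± 11.9 FPKM (limma adjusted p = 3.14e-04) and kept its call after median ratio scaling (0.00256). Nfe2l2 went from 57.7 ± 2.57 to 64.4 ± 2.80 (0.0231) and lost its call (0.828). Slc7a11 and Sesn2, added likewise, were not called as deposited.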

How the data were processed

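The authors deposited 1 FPKM value per gene and library, per the file headers, for 6 input libraries. No aligner, quantifier or annotation is given in the sources used here. GRCh38, a human assembly, is the build listed per the submitters' processing notes, although symbols and organism are mouse. Which genome the values rest on is therefore unknown, and no coordinates of these files are given. How reads shared by paralogs were assigned is not stated.

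Of 19763 rows, 24 repeated a name, of which the row with the larger mean over libraries stayed. Values of low genes did not fall on whole-read steps (at most 10 genes of a pair of libraries shared a ratio), so no counts were recovered. Genes that reach an FPKM of 1 in 3 or more libraries were compared as log2(FPKM + 1) with limma 3.58.1 in R 4.3.3 (intensity trend, Benjamini-Hochberg adjustment over 10985 genes, threshold 0.05). The scale understates the change of low genes. Scalings were as deposited, to the same sum, by median ratio and by quantiles. Ratios within a library were compared by exact two-sided permutation tests. Simulated data with known changes were used to check that the fit recovers them (tested on simulated data). Promoter windows of RefSeq were searched with Python 3.11.15.

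The genes and lists were chosen with earlier results of these data known. Values in every library were to be given for Atf4 and, in each role group, for the 5 tested genes with the smallest and the 2 with the largest limma p, and in each other list up to 3 genes with the smallest p were to be named. Genes given beyond that are marked as added with their values known, that is, chosen after their values were seen, except for the remaining genes of the set, all of which are given.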

Additional observations from a re-analysis of the deposited data

How the results depend on the processing

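The count of 38 lower genes of the set ranged from 34 to 38 when each library was left out in turn, and from 36 to 41 under the other settings tried (pseudocount 0.1, no filter, a filter at an FPKM of 5, the 3 other scalings, the replicate block, no intensity trend and library weights). The single higher gene, Mthfd1, was not called after median ratio scaling, which gave 0 higher genes. It kept its call after scaling to the same sum and by quantiles. Without a filter on low values 4 were higher, Shmt1, Cbs and Got2 being added. Over all tested genes 1535 lower and 5127 higher as deposited became 2645 and 2371 after median ratio scaling, and 3138 were higher after quantile normalization. The log2 difference of Got1 (-0.01) turned to 0.0219 with library weights and ranged from -0.0691 to 0.0425 when each library was left out, being above 0 without WT replicate 2, 3KR replicate 1 or 3KR replicate 3. That of Got2 turned to -0.0821 after median ratio scaling and -0.0122 after quantile normalization. That of Wars turned to -0.0367, -0.111 and -0.0750 after scaling to the same sum, by median ratio and by quantiles. None of these was past the threshold. The cause of these changes was not tested. The ratios within a library kept their direction in all 8 settings tried. Deviations of same-numbered libraries from their group means correlated at -0.03 to 0.03, so the values show no pairing by replicate number. Whether libraries of the same number share a mouse or a culture is not known. With the replicate block 38 genes of the set were lower and 1 higher. The unknown depth limits what can be said of Shmt1, Cbs and Slc43a1, all near or under an FPKM of 1.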

Other observations

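Of 11 tested genes of glutamine, proline, branched-chain and arginine metabolism 1 was lower and 8 were higher in 3KR (limma adjusted p under 0.05), with a median log2 difference of 0.28, and 1 was lower and 3 were higher after median ratio scaling. Of all tested genes 14.0% were lower and 46.7% higher as deposited, and 24.1% and 21.6% after median ratio scaling, so the higher count is near the background once scaled. Bcat1, the cytosolic transaminase of branched-chain amino acids, fell from 18.8 ± 0.639 to 13.7 ± 0.238 FPKM (SD, n = 3, limma adjusted p = 7.98e-05). Aldh4a1, which turns the proline breakdown product into glutamate, rose from 12.9 ± 0.297 to 18.4 ± 1.18 (limma adjusted p = 1.43e-04), and Glul, glutamine synthetase, rose from 10.4 ± 0.276 to 13.8 ± 0.421 (limma adjusted p = 1.97e-04). Of 11 other tested folate and glycine genes 2 were lower and 2 higher, which for lower genes is near the 14.0% of all tested genes and for higher genes under the 46.7%. After median ratio scaling 3 of these 11 were lower and 1 higher. Slc25a32, the mitochondrial folate carrier, rose from 2.12 ± 0.0473 to 2.91 ± 0.108 FPKM. Aldh1l1, the cytosolic relative of Aldh1l2, fell from 4.05 ± 0.465 to 3.25 ± 0.227, and both kept their calls after median ratio scaling. Mtr, methionine synthase, went from 24.3 ± 0.921 to 28.5 ± 1.76 as deposited. It was not called after median ratio scaling (log2 difference 0.06, limma adjusted p = 0.455).

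Of 12 tested transporters outside the set 5 were lower and 3 higher, where 14.0% of all tested genes were lower and 46.7% higher. Slc7a8, 1 of the 5 and chosen after its values were seen, passed the filter through the WT libraries alone (2.03 ± 0.273 FPKM, with 0.691 ± 0.0417 in 3KR), so its call gives no support. In the Slc38 family Slc38a6 rose from 5.28 ± 0.350 to 7.40 ± 0.583 FPKM (limma adjusted p = 0.00114) and Slc38a7 fell from 31.3 ± 0.968 to 24.1 ± 0.934 (limma adjusted p = 2.40e-04), both chosen after their values were seen. Slc43a2, a carrier of large neutral amino acids like the LAT1 complex, rose from 4.17 ± 0.289 to 10.5 ± 0.221 FPKM (SD, n = 3, limma adjusted p = 1.25e-06), 2.51-fold, while Slc7a5 of LAT1 fell. Slc1a3, a glutamate transporter, fell from 3.96 ± 0.142 to 1.72 ± 0.149, and Slc7a2, a cationic amino acid transporter, from 88.9 ± 1.07 to 64.7 ± 1.58.

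Among tested genes outside the set, TGATGCAA lay in a promoter window of 44, of which 13 (29.5%) were lower in 3KR, while 1049 of 8281 genes without it (12.7%) were. With TGATGNAA the counts were 46 of 198 (23.2%) and 1016 of 8127 (12.5%). With TGACGTCA the shares went the other way, 16 of 312 (5.13%) and 1046 of 8013 (13.1%). These shares were looked at after the values of the set were seen, no test was made, and some genes with the letters belong to the other lists above.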
